A study of Mus musculus with 4 samples.

Results

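Pspc1, Slc25a36 and Fubp1 are 3 protein-coding genes with repeated peaks for Trim71 in its R783H mutant form. All peaks assigned to these gene names in the authors' peak list were taken, which gave 6 peaks for Pspc1, 8 for Slc25a36 and 5 for Fubp1, or 19 of 793 listed peaks. The genes were picked because they had many peaks, so their peak numbers, read numbers and enrichments are given as descriptions and were not tested. Of 544 gene names in the list, 9 had 5 or more peaks. Fubp1 shared its number of 5 with Cpsf6, Hsp90ab1, Rps20 and Rps24, and 14 further genes had 4 peaks.

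The libraries came from mouse embryonic stem cells of the ES-E14TG2a background that carry FLAG-tagged Trim71 (R783H), grown with LIF and the inhibitors CHIR99021 and PD0325901. HITS-CLIP, which crosslinks a protein to its RNA in the cell and sequences the fragments that are pulled down with it, was run with a FLAG antibody in 2 libraries, and 2 input libraries were made from cells of the same kind. All 4 libraries carry the mutant protein; cells with the wild-type protein or without a tag were not analysed here. The labels do not say whether the libraries came from separate cultures, or whether an untagged Trim71 allele was present. A peak has a single value for the whole series in this table, so no spread between replicates could be computed.

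Trim71, also called Lin41, belongs to the TRIM-NHL proteins, which bind RNA through their NHL domain and repress the messenger RNAs they bind in stem cells and early embryos. Mutations of the human gene that alter this domain are known from congenital hydrocephalus. Pspc1 encodes a protein of the DBHS family that, with Nono and Sfpq, is part of paraspeckles, nuclear bodies built on the noncoding RNA Neat1. Slc25a36 encodes a carrier that moves pyrimidine nucleotides across the inner mitochondrial membrane. Fubp1 encodes a KH-domain protein that binds single-stranded DNA upstream of Myc and also takes part in splicing.

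Each peak has an RPM value, the reads in the whole interval scaled to a total of 1000000 and not divided by its width, and a fold change of CLIP over input, both as the authors gave them; the fold change is on the log2 scale as judged from its values. CLIP and input reads were recovered from these columns, with 1 CLIP read worth one eleventh of an RPM. All intervals given with RPM values and fold changes are 95% intervals that cover counting error only, and reads copied by PCR are not independent molecules. The 19 peaks held 1675 CLIP reads, which was 0.685% of the summed RPM of the list against 2.40% of its peaks. Across all 793 peaks, RPM had its median at 8.36 (quartiles 5.55 and 15.2), the median log2 fold change 4.20 (3.51 to 5.02) and the median width 32 bases (19 to 49).

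The peaks lay in a limited stretch of each gene. Positions below count from the 5′ end of the gene in the RefSeq table of assembly GRCm38.p6, which corresponds to the mm10 build named in the submitters' processing notes; the peak strands matched the strands of the 3 genes. The Pspc1 gene spans 55.9 kb on the minus strand of chromosome 14, and its peaks covered a stretch of 9.21 kb, or 16.5% of the gene, between 39.7 and 48.9 kb from its 5′ end. The Slc25a36 gene spans 35.8 kb on the minus strand of chromosome 9, and all 8 peaks lay within 2.75 kb, or 7.69% of the gene, between 18.3 and 21.0 kb from its 5′ end. The Fubp1 gene spans 26.4 kb on the plus strand of chromosome 3, and its 5 peaks lay within 2.75 kb, or 10.4% of the gene, between 4.24 and 1.53 kb before its 3′ end.

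In 53 other genes with 3 or more peaks on 1 strand, the stretch from the first to the last peak had a median of 1865 bases (interquartile range 1049 to 3351). For the 50 of them whose name matched a current RefSeq symbol, it had a median of 26.1% of the gene (12.6 to 55.9%). In bases, the Slc25a36 and Fubp1 stretches were within that interquartile range and the Pspc1 stretch was above it; in percent of the gene, Slc25a36 and Fubp1 were below the range and Pspc1 was inside it.

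No peak overlapped the RefSeq promoter windows of these genes (0 of 19 peaks). All lay 18.3 kb or more from the 5′ end of their gene, so nothing is read from this count. No annotated snoRNA, microRNA or snRNA gene lay in the spans of the 3 genes (0 such genes), and no peak assigned to another gene fell there (0 peaks). The only other gene that overlapped a span was Dnajb4, at the 5′ end of Fubp1 and away from its peaks.

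**Figure D1:**
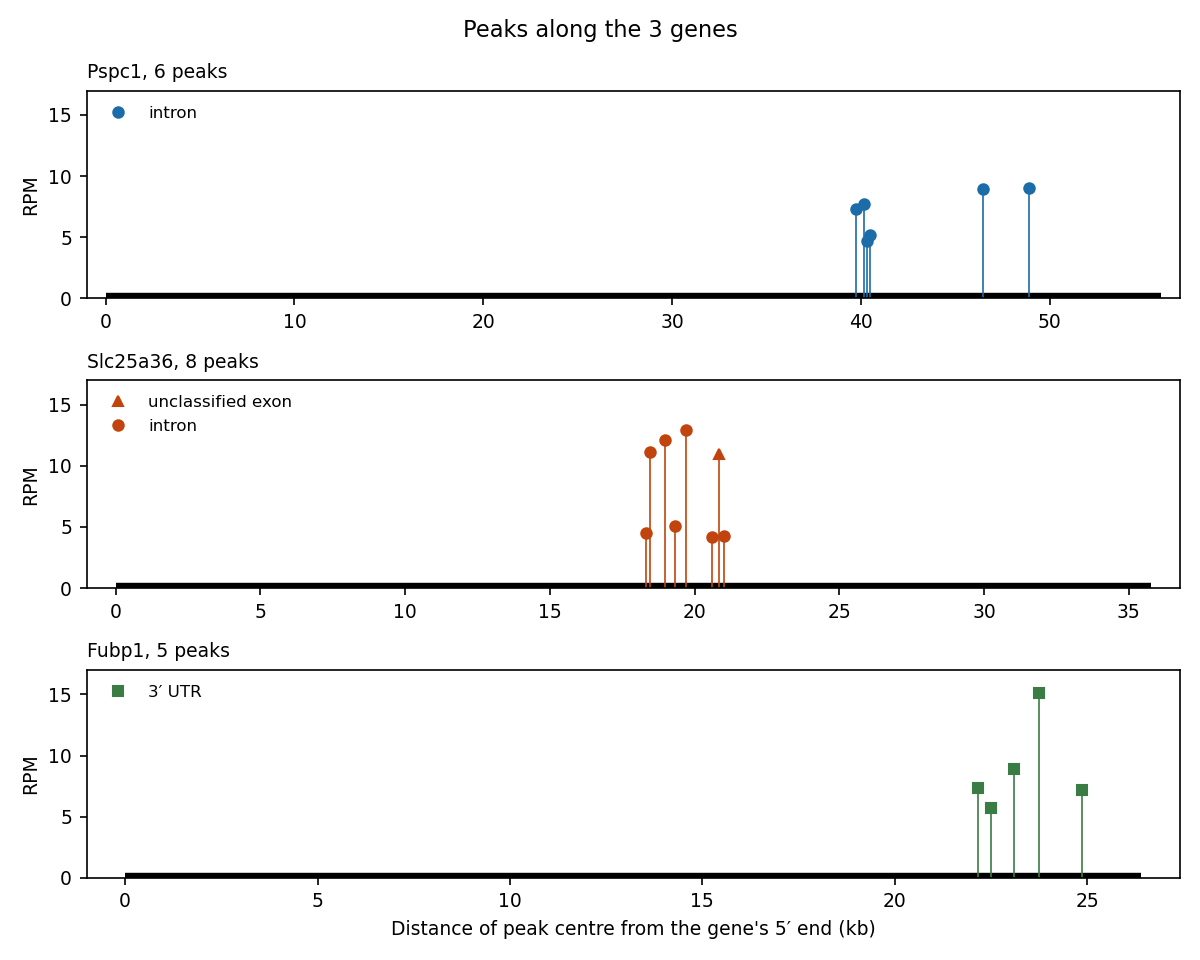
RPM of the 19 peaks (vertical axis) against the distance of the peak centre from the gene's 5′ end in kb (horizontal axis), 1 panel per gene; the black bar is the RefSeq gene span and the marker shape gives the location in the authors' list. Slc25a36 peaks sit in a 2.75 kb stretch inside the gene, Fubp1 peaks in the last 4.24 kb, and 4 of 6 Pspc1 peaks almost coincide at this scale.

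Pspc1 had 6 intronic peaks, of which 4 formed a tight group. Numbered from 5′ to 3′ along the transcript, peak 1 ran from 56738573 to 56738586 and had 7.27 RPM (interval 5.77 to 9.05), from 80 CLIP reads against 9 input reads. Peak 2, from 56738121 to 56738159, had 7.73 RPM (6.17 to 9.55) from 85 CLIP and 12 input reads. Peak 3, from 56738014 to 56738037, had 4.73 RPM (3.53 to 6.20) from 52 CLIP and 13 input reads. These peaks differed little in input, and peak 3 was the weakest of the gene. Peak 4, from 56737843 to 56737862, had 5.18 RPM (3.92 to 6.71) from 57 CLIP and 11 input reads. Peak 5, from 56731833 to 56731858, had 8.91 RPM (7.23 to 10.9) from 98 CLIP and 8 input reads. Peak 6, from 56729377 to 56729431, had 9 RPM (7.31 to 10.96) from 99 CLIP and 15 input reads. The 2 downstream peaks that stood alone thus had the highest RPM. Peak 6 had 1.90 times the RPM of peak 3, and the intervals of peaks 5 and 6 lay above those of peaks 3 and 4 but overlapped those of peaks 1 and 2.

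The gaps between neighbouring Pspc1 peaks, from 5′ to 3′, were 414, 84, 152, 5985 and 2402 bases. The longest gap was 71.3 times the shortest, so the 6 peaks were not evenly spaced. Peaks 1 to 4 lay within 743 bases and held 274 of the gene's 471 CLIP reads, or 58.2%. The log2 fold change of their summed reads was 5.51 (interval 5.05 to 5.996). The intervals of peak 5 (6.52, interval 5.48 to 7.77) and peak 6 (5.62, 4.83 to 6.51) overlapped that of the group. The group and the lone peaks could therefore not be told apart in enrichment at this depth.

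Pspc1 peaks had a median width of 24 bases and a range of 13 to 54 bases. CLIP reads per base ranged from 1.83 in the widest, peak 6, to 6.15 in the narrowest, peak 1. The reads of the whole interval are divided by its width here, so a narrow interval can rank high from its width alone. Their log2 fold changes were 6.05, 5.73, 4.90, 5.27, 6.52 and 5.62 in the same 5′ to 3′ order. Peak 5 ranked 18th of all 793 peaks by log2 fold change, and the lowest, peak 3, ranked 224th. Among the 15 pairs of Pspc1 peaks, the number whose intervals did not overlap was 0. Input reads were few, between 8 and 15 per peak, where the lowest number in the list was 5. The order of the 6 peaks in enrichment is therefore not resolved at this depth.

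Slc25a36 had the most peaks of the 3 genes, with 7 in introns and 1 in an exon that the authors left unclassified. Numbered from 5′ to 3′, peak 1 ran from 97092721 to 97092740 and had 4.55 RPM (interval 3.37 to 5.99), from 50 CLIP and 32 input reads. Peak 2, only 10 bases wide, ran from 97092579 to 97092589 and had 11.1 RPM (9.21 to 13.2) from 122 CLIP and 43 input reads. Peak 3, from 97092043 to 97092100, had 12.1 RPM (10.1 to 14.3) from 133 CLIP and 63 input reads, the most input of the 19 peaks. A peak with few reads was thus followed by a pair with more. Peak 4, from 97091704 to 97091724, had 5.09 RPM (3.85 to 6.61) from 56 CLIP and 10 input reads. Peak 5, from 97091280 to 97091395, had 12.9 RPM (10.9 to 15.2) from 142 CLIP and 35 input reads, and with 115 bases it was the widest interval of the whole list. The next peak downstream was the narrowest of the gene. Peak 6, from 97090429 to 97090437, spanned 8 bases and had 4.18 RPM (3.06 to 5.58) from 46 CLIP and 24 input reads. Peak 7, the one in the unclassified exon, ran from 97090172 to 97090231 and had 11 RPM (9.13 to 13.1) from 121 CLIP and 32 input reads. Peak 8, from 97089989 to 97090032, had 4.27 RPM (3.14 to 5.68) from 47 CLIP and 27 input reads.

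By reads per interval, the Slc25a36 peaks fell into separate levels. Peaks 2, 3, 5 and 7 had 11 to 12.9 RPM and peaks 1, 4, 6 and 8 had 4.18 to 5.09 RPM. The levels were formed by a split at the gene's median RPM, so their separation is a description and not a test. Their counting intervals did not overlap: the lowest bound of the higher level was 9.13 RPM and the highest of the lower level 6.61 RPM. With the same split, these bounds overlapped in Pspc1 (6.17 against 9.05 RPM) and in Fubp1 (7.23 against 8.95 RPM). Uneven RPM was not particular to Slc25a36: the Hnrpdl peaks had 43.7, 15.9, 4.27 and 3.91 RPM. The Malat1 peaks had 231, 73.8, 31.3 and 28.2 RPM. The split was not made in other genes, so no share of them is given. In Slc25a36, the higher level held 72.2% of the 717 CLIP reads. Peaks of the levels were interleaved along the transcript. Apart from peak 2, width moved with the level: peaks 2, 3, 5 and 7 were 10, 57, 115 and 59 bases wide, and peaks 1, 4, 6 and 8 were 19, 20, 8 and 43 bases wide. Per base of interval, the levels did not hold. Peaks 1 to 8 had 2.63, 12.2, 2.33, 2.80, 1.23, 5.75, 2.05 and 1.09 CLIP reads per base. The narrow peaks 2 and 6, 1 from each level, were the highest, and the widest interval, peak 5, was among the lowest. The divisor is the width itself, so this order largely mirrors width and is not read as a difference in binding density.

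The gaps in Slc25a36, from 5′ to 3′, were 132, 479, 319, 309, 843, 198 and 140 bases. The longest was 6.39 times the shortest, and 6 of 7 were within 500 bases. The 843-base gap divided the peaks into an upstream group of 5 over 1460 bases, with 503 CLIP reads, and a downstream group of 3 over 448 bases, with 214 CLIP reads. The log2 fold changes of the summed reads of each group were 4.36 (interval 4.11 to 4.61) and 4.27 (3.90 to 4.65), with overlapping intervals. The unclassified-exon peak lay inside the downstream group, with an intronic peak on either side at gaps of 198 and 140 bases.

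The log2 fold changes of the Slc25a36 peaks, in the same order, were 3.55, 4.41, 3.98, 5.39, 4.92, 3.84, 4.82 and 3.70. Among 28 pairs of peaks, 3 had intervals that did not overlap, and all 3 involved peak 1 (interval 2.88 to 4.23), which lay below peaks 4 (4.40 to 6.52), 5 (4.38 to 5.50) and 7 (4.25 to 5.43). Peak 4 had few CLIP reads but the highest enrichment of the gene, with the fewest input reads. Peaks 1, 6 and 8 lay close to the lower edge of the list. Only 1, 4 and 1 other listed peaks, respectively, had no more CLIP reads together with no fewer input reads than these 3, whereas the corresponding number was 54 or more for each of the other 16 peaks.

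**Figure D2:**
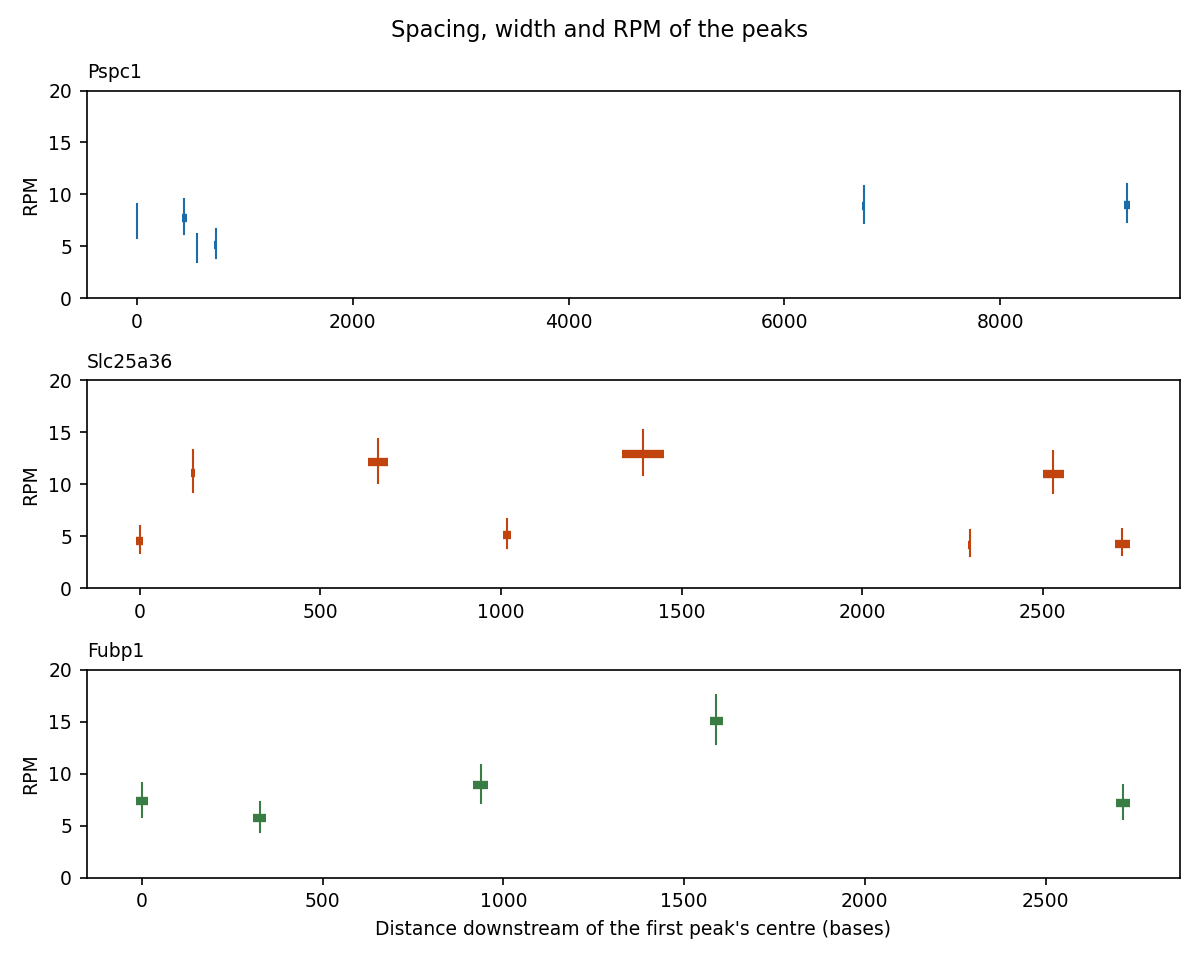
RPM per peak (vertical axis) against distance downstream of the centre of each gene's first peak in bases (horizontal axis, with its own scale per gene); thick bars show peak width to scale and thin vertical lines the exact Poisson 95% interval of the RPM. The 8 Slc25a36 peaks form levels of 11 to 12.9 and 4.18 to 5.09 RPM, and Fubp1 peaks have nearly equal widths.

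Fubp1 differed in location and form: all 5 peaks were listed in the 3′ UTR, and their widths were 32, 36, 40, 37 and 40 bases from 5′ to 3′. Peak 1, from 152232572 to 152232604, had 7.36 RPM (interval 5.85 to 9.15) from 81 CLIP and 24 input reads. Peak 2, from 152232895 to 152232931, had 5.73 RPM (4.40 to 7.33) from 63 CLIP and 16 input reads. Both lay within a 359-base stretch. Peak 3, from 152233505 to 152233545, had 8.91 RPM (7.23 to 10.9) from 98 CLIP and 39 input reads. Peak 4, from 152234159 to 152234196, had 15.1 RPM (12.9 to 17.6) from 166 CLIP and 23 input reads. Peak 5, from 152235282 to 152235322, had 7.18 RPM (5.69 to 8.95) from 79 CLIP and 6 input reads. Peak 4 had the highest RPM of all 19 peaks and was the only Fubp1 peak whose interval overlapped no other of the gene; it held 34.1% of the gene's 487 CLIP reads. With near-equal widths, it was also the highest per base, with 4.49 CLIP reads per base against 1.75 to 2.53 in the other 4.

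The Fubp1 gaps were 291, 574, 614 and 1086 bases in 5′ to 3′ order, so each was longer than the one before. With 4 gaps, no more than this order can be stated. The longest was 3.73 times the shortest, the smallest such ratio of the 3 genes. All 5 peaks stayed separate when neighbours within 100 bases were joined, and 4 sites remained at 500 bases.

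The Fubp1 log2 fold changes were 4.66, 4.88, 4.23, 5.75 and 6.62 from 5′ to 3′. Peak 5 (interval 5.43 to 8.11) ranked 14th of the 793 peaks, from 6 input reads, where the lowest number in the list was 5. Its interval lay above those of peak 1 (3.98 to 5.38) and peak 3 (3.68 to 4.805), and that of peak 4 (5.12 to 6.45) lay above that of peak 3; these were the 3 non-overlapping pairs of 10. The 2 peaks nearest the 3′ end of the gene thus had the highest values, peak 4 with the most CLIP reads and peak 5 with the fewest input reads. The interval of peak 2 (4.07 to 5.77) overlapped those of both, so a rise towards the 3′ end is not resolved at this depth.

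**Figure D3:**
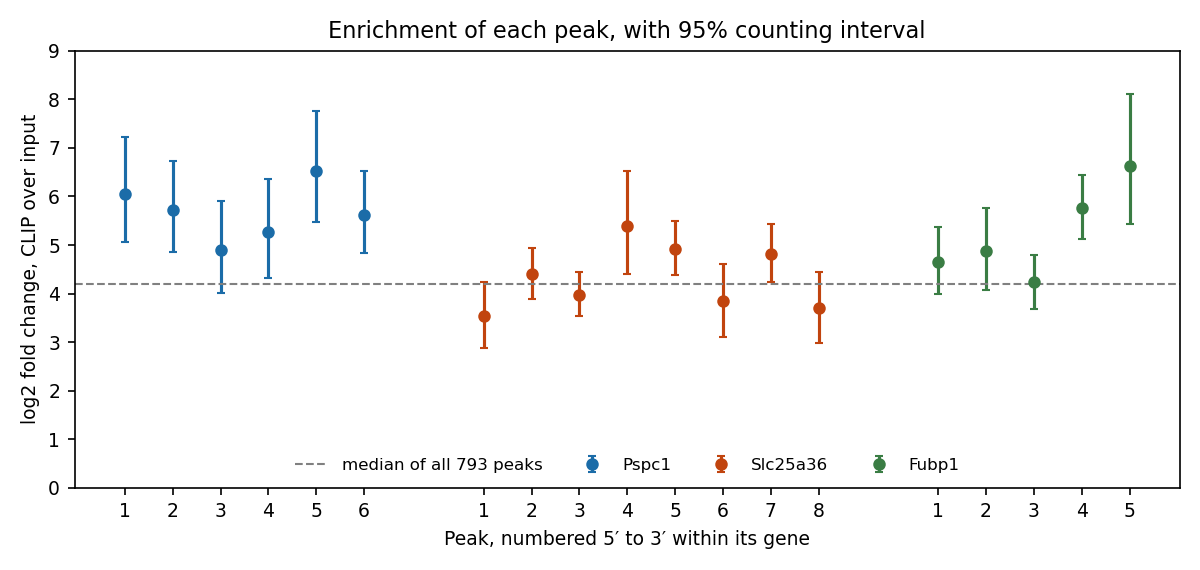
Log2 fold change (CLIP over input, vertical axis) of each peak as deposited, numbered 5′ to 3′ within its gene (horizontal axis); bars are 95% counting intervals from recovered reads and the dashed line is the median of the list, 4.20. All Pspc1 and Fubp1 peaks lie above the line, and 4 of 8 Slc25a36 peaks do.

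The 3 genes were then set side by side on values that sum over their peaks. The log2 fold change of the reads summed over a gene's peaks was 5.69 for Pspc1 (interval 5.32 to 6.08), 5.07 for Fubp1 (4.77 to 5.39) and 4.33 for Slc25a36 (4.13 to 4.54). The Slc25a36 interval overlapped neither of the others, and those of Pspc1 and Fubp1 overlapped. These intervals take the reads of a gene as 1 count and leave out the spread between its peaks. Single peaks ranged from 4.90 to 6.52 in Pspc1, 4.23 to 6.62 in Fubp1 and 3.55 to 5.39 in Slc25a36. These ranges overlapped. No replicate values exist in the table against which to test the differences between genes. Log2 fold changes above the median of the list were found in 6 of 6 Pspc1, 5 of 5 Fubp1 and 4 of 8 Slc25a36 peaks, beside 49.9% of all peaks. The lower bound of the interval exceeded 4-fold enrichment in 19 of 19 peaks, beside 99.0% of all peaks; the genes were chosen from the same contrast, and nothing is read from these counts.

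Per base of peak, CLIP reads were similar between the genes and input reads were less so. Pspc1 had 2.74 CLIP reads per base (Poisson interval 2.50 to 3.00), Fubp1 2.63 (2.40 to 2.88) and Slc25a36 2.17 (2.01 to 2.33). Input reads per base were 0.395 in Pspc1 (0.307 to 0.501), 0.584 in Fubp1 (0.479 to 0.705) and 0.804 in Slc25a36 (0.710 to 0.906). The highest value was 1.26 times the lowest for CLIP and 2.03 times for input. The lower enrichment of Slc25a36 thus came with more input reads and fewer CLIP reads per base in these sums. Neither of its intervals, which leave out the spread between peaks, overlapped those of the other genes. The CLIP difference was not seen in the medians over single peaks, which were 2.63 in Pspc1, 2.48 in Slc25a36 and 2.45 in Fubp1. Without division by width, the median RPM per peak was highest in Slc25a36, at 8.05 against 7.5 in Pspc1 and 7.36 in Fubp1. The 115-base peak 5 of Slc25a36, with 1.23 CLIP reads per base, weighs heavily in its sum.

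**Figure D4:**
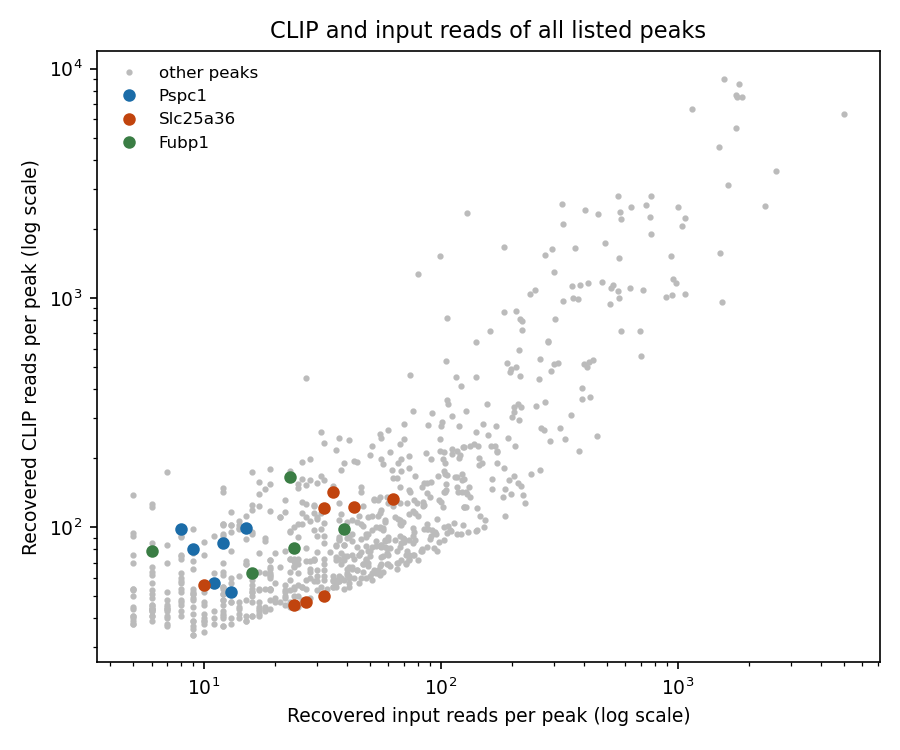
Recovered CLIP reads (vertical axis) against recovered input reads (horizontal axis) of each of the 793 peaks, both on log scales; grey points are peaks of other genes and intergenic peaks. Pspc1 peaks have 8 to 15 input reads and Slc25a36 peaks 10 to 63, with 3 Slc25a36 peaks (46 to 50 CLIP and 24 to 32 input reads) at the lower edge of the points.

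Medians were set beside those of peaks of the same location. The median was 9.55 RPM in the 108 other intronic peaks, and 6.18 RPM in the 68 among them that lay in genes without an annotated snoRNA gene (interquartile range 4.64 to 11.1). It was 7.5 RPM over the Pspc1 peaks and 5.09 RPM over the 7 intronic Slc25a36 peaks; with the unclassified-exon peak the Slc25a36 median was 8.05 RPM. The median log2 fold change of those 68 peaks was 5.16 (4.38 to 5.83), against 5.67 in Pspc1 and 3.98 in the intronic Slc25a36 peaks. Their median input was 16 reads (7.75 to 37.8), against 11.5 in Pspc1 and 32 over all Slc25a36 peaks. The 295 other 3′ UTR peaks had medians of 7.46 RPM (5.46 to 11.1), 3.999 for log2 fold change (3.36 to 4.81) and 42 input reads (18.5 to 77.0). Fubp1 had medians of 7.36 RPM, 4.88 and 23 input reads. The quartiles describe single peaks, so they are no measure for a median over a gene, and no test was run.

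The gaps between neighbouring peaks of other genes with 2 or more peaks had a median of 479 bases (n = 203, interquartile range 129 to 1317). The median gap was 309 bases in Slc25a36, 414 in Pspc1 and 594 in Fubp1, where the same median per gene over 53 other genes with 3 or more peaks had its own median at 725 bases (interquartile range 243 to 1290). The 3 values lay within that range. Gaps of 50 bases or less made up 16.3% of the 203 gaps of other genes, and there were 0 among the 16 gaps of the 3 genes. Gas5 and Snhg1, the noncoding snoRNA hosts with 9 peaks each, had such short gaps down to 18 and 12 bases. So did Rps24, Rps20 and Hsp90ab1, protein-coding genes with 5 peaks each, down to 12, 17 and 45 bases. The absence of such gaps was not particular to the 3 genes. The shortest gap was 117 bases in Cpsf6, 179 in Hnrpdl and 204 in Fubp3. At 500 bases or less, the share was 51.2% in other genes, 6 of 7 in Slc25a36, 3 of 5 in Pspc1 and 1 of 4 in Fubp1. At 1000 bases or less, it was 69.0% in other genes, 7 of 7 in Slc25a36, 3 of 5 in Pspc1 and 3 of 4 in Fubp1.

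**Figure D5:**
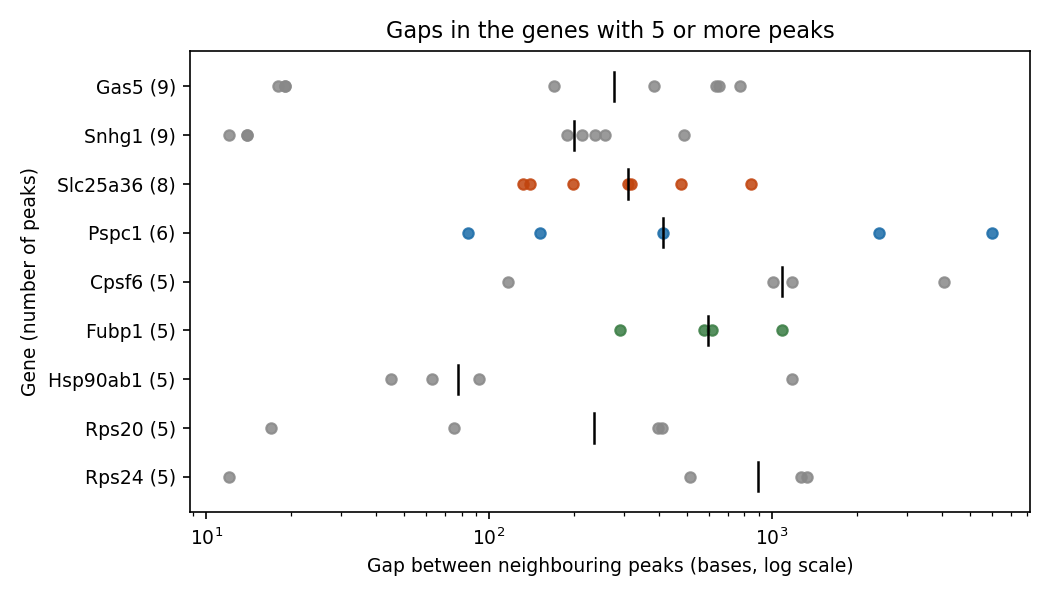
Gaps between neighbouring peaks in bases (horizontal axis, log scale) for the 9 genes with 5 or more peaks, each row a gene with its number of peaks in brackets; points are single gaps and the black tick is the median. The Slc25a36 gaps lie between 132 and 843 bases and the Pspc1 gaps between 84 and 5985 bases.

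The genes nearest to each member were found by the distance over median gap, median log2 fold change and median RPM. Each measure was scaled by its SD over the 56 genes with 3 or more peaks on 1 strand. Nearest to Pspc1 were Rps2, at a distance of 0.637, and Ccnl2, at 0.945, where the median gene was at 2.80. The median gap does not capture uneven spacing. Gaps ran from 152 to 237 bases in Rps2 and 302 to 479 in Ccnl2, against 84 to 5985 in Pspc1. Nearest to Slc25a36 were Hnrpdl, at 0.331, and Fubp3, at 0.482 (median 1.49). Nearest to Fubp1 were Arglu1, at 0.349, and Hnrnph1, at 0.363 (median 1.91). Likeness in these measures did not extend to location: Rps2 peaks were in coding sequence, those of Hnrpdl and Fubp3 in the 3′ UTR, and those of Arglu1 in introns.

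Relatives and partners of the 3 genes were looked up in the list, with no level known for genes that are not in it. Of 21900 protein-coding RefSeq symbols, 460 were in the list (2.10%), a background that includes genes these cells may not express; nothing is read from the counts below, and the lists were chosen from known biology around genes already picked for their peaks. Of 21 paraspeckle and related nuclear RNA genes besides Pspc1, of which 19 matched a RefSeq symbol, 6 were listed: Nono, Tardbp, Cpsf6, Ewsr1, Taf15 and Malat1. Nono, the DBHS partner of Pspc1, had 1 coding-sequence peak of 8 RPM with a log2 fold change of 3.36 (interval 2.88 to 3.85), below every Pspc1 interval. Cpsf6, a subunit of the cleavage factor for pre-messenger RNA 3′ ends, had 5 peaks, 3 in its 3′ UTR and 2 in introns, with log2 fold changes of 4.63 to 6.34. Neat1 and Sfpq were among the 15 not listed.

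Of 46 mitochondrial carrier genes besides Slc25a36, 2 were listed. The phosphate carrier gene Slc25a3 had 1 coding-sequence peak with a log2 fold change of 3.66 and the adenine nucleotide carrier gene Slc25a5 had 1 in its 3′ UTR with 3.07. Neither had an intronic peak in the list.

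Of 10 genes of the FUBP family, its partners and targets besides Fubp1, 4 were listed: Fubp3, Puf60, Cdkn1b and Sirt1. Fubp3, the paralogue of Fubp1, also had repeated 3′ UTR peaks, 3 of them on the plus strand of chromosome 2 between 31616520 and 31617259. Their log2 fold changes were 4.49, 3.54 and 3.89 from 5′ to 3′, and their RPM values 4.91, 10.4 and 13.2 RPM. The first of these values lay inside the range of the Fubp1 peaks and the others below it, with intervals of 3.11 to 3.99 and 3.48 to 4.32 that overlapped those of Fubp1 peaks 1, 2 or 3 in part. Khsrp, another paralogue, and Myc were not listed. Of 7 genes that mark embryonic stem cells, Sox2 and Zfp42 had listed peaks; the table holds no expression levels, so the cell type could not be checked further.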

How the data were processed

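A peak list of the whole series was analysed. The submitters' processing notes name CASAVA 1.4, cutadapt, HISAT2 2.1.0, SAMtools and the mm10 build, without role or order; the peak caller, its thresholds and the pooling of libraries are not given in the sources used here. The authors' columns are, per the file headers, RPM and a fold change. Every RPM value times 11 was whole to within 0.005, which gave CLIP reads at a total of 11000000. The deposited fold change was read as log2: CLIP reads divided by it, times a depth ratio of 7.47, gave whole input reads in 100% of 708 peaks with a rounding error under 0.1 reads, against 15.5% of 670 when read as linear and 5.56% of 738 as natural log. A constant that may have been added to input reads upstream would be part of the recovered numbers. The recovery was also run on simulated Poisson counts built with the same model, a log2 fold change and a fixed depth ratio. Such a run cannot check the log base, an added constant or reads copied by PCR.

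Intervals are 95%, exact Clopper-Pearson for fold changes and exact Poisson for RPM and reads per base (Python 3.11.15, scipy 1.17.1, pandas 2.3.3). Depth per library is unknown, and 0 columns of values per sample were left out. Width is deposited end minus start; coordinates are as deposited, without knowing whether they count from 0 or 1. Positions along genes use peak centres. Members, lists and comparisons were chosen with earlier results of these data known. All peaks of the members were named. The genes most like each member were the 2 nearest among those with 3 or more peaks; genes with as many peaks as a member or 1 fewer were named or counted. No test between groups was run, since the members were chosen on this contrast. Joining distances, means for medians, summed reads, an added read, Wilson intervals and a stricter list were tried. Peak sequences were not analysed here.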

Additional observations from a re-analysis of the deposited data

How the results depend on the processing

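The number of separate sites depended on the distance at which neighbours were joined, by construction. Against 6, 8 and 5 sites at 50 bases for Pspc1, Slc25a36 and Fubp1, joining within 500 bases left 3 for Pspc1 and 2 for Slc25a36, and joining within 1000 bases, added after seeing the data, left 3, 1 and 2. Of the Slc25a36 sites, a list cut to its upper 50% in enrichment kept 4. Other alternatives added after seeing the data moved a median by over 1.5 times: the median gap of the 4 Pspc1 peaks nearest the gene's start was 152 bases against 414, and the median of the intronic Slc25a36 peaks was 5.09 RPM against 8.05. The other alternatives stayed within 1.5 times or, for log2 fold changes, within the median counting half-width of the gene's peaks. No paired analysis was possible because no library has values of its own; leaving out a replicate could not be run for the same reason, and GC content was not analysed here. Input of 6 to 15 reads in 8 of the 19 peaks limits the precision of single log2 fold changes.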
